A study of Canis lupus familiaris with 34 samples.

Results

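Bone morphogenetic proteins (BMPs) and the extracellular proteins that bind them were followed in mitral valves of Cavalier King Charles Spaniels, a breed prone to myxomatous mitral valve disease (MMVD). The set held 9 genes of the 23768 features in the count table. They were BMPER, the ligands BMP2, BMP4, BMP6 and BMP7, and the antagonists GREM1, NOG, CHRD and CHRDL1. Each was taken by its symbol, with the canine RefSeq feature used where the table also held a human one. BMPER was chosen by its fold change between dogs with and without congestive heart failure (CHF) in these same libraries, so its values in that comparison are given as a description without a test. The other 8 genes were taken for their roles.

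BMPs are secreted ligands of the TGF-beta family that bind paired type I and type II serine/threonine kinase receptors and signal through phosphorylated SMAD proteins. Secreted antagonists such as gremlin, noggin and chordin bind the ligands and keep them from the receptors. BMPER, also called crossveinless-2, is a secreted chordin-like protein that binds BMPs and chordin and has been described as both an inhibitor and an enhancer of BMP signaling. In the embryonic heart, BMP signaling takes part in the formation of the endocardial cushions from which the mitral valve develops.

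Valves came from 34 privately owned dogs of either sex, approximately 10 years old, that were euthanized electively. The 10y-MMVD-CHF group held 15 dogs with MMVD in ACVIM stage C, meaning that heart failure had occurred (6 females and 9 males). The 10y-noCHF group held 19 dogs without heart failure (10 females and 9 males). It pooled ACVIM stages A, B1 and B2, so nearly all of these dogs also had MMVD, and the groups differed in heart failure rather than in the presence of valve disease. Stage, age and treatment were not paired with single dogs in the labels. CHF status therefore cannot be told apart from the severity of the valve lesion or from the diuretics that dogs with CHF had received. Each dog gave 1 library of polyA RNA, and total counts ranged from 46185256 to 82361245 per library. Genes expected of valve interstitial cells, the resident fibroblast-like cells of the valve, were high in every library, with VIM between 1835 and 4321 and LUM between 2111 and 5395 CPM, the count of a feature relative to the depth of its library after edgeR's TMM scaling. CAV614 and CAV1047, both 10y-MMVD-CHF, stood apart from the other libraries in their expression profile. Several fold changes and BMPER correlations are also given without them. Correlations with the marker lists, and those of gene pairs that leave out BMPER, are not given without both dogs. The whole valve was sequenced, so fewer cells of a type and less RNA per cell cannot be told apart.

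All 9 genes were detected in each of the 34 dogs and all passed the minimum of 100 counts over the dogs. BMPER was measured on a human XenoRefSeq feature aligned to the dog genome (canFam4, chr14:46005756-46252474, plus strand), which covers the gene from end to end with its introns. It received 16972 counts in total, between 92 and 1748 per dog. All of its counts were even in all 34 dogs, and so were those of NOG and CHRD. For BMP2, BMP4, BMP6, BMP7, GREM1 and CHRDL1 the number of dogs with an even count lay between 14 and 21. The cause of this pattern was not tested. Both reads of a pair were counted for every gene, so the number of fragments behind each value is smaller than the count. BMP2 (chr24:15650214-15663144), BMP6 (chr35:8981890-9131717), GREM1 (chr30:2496291-2508380), NOG (chr9:31415529-31417504), CHRD (chr34:17424936-17434606) and CHRDL1 (chrX:84466846-84587083) were likewise human features. BMP4 (chr8:30299531-30306532) and BMP7 (chr24:42952878-43042732) were canine RefSeq features made of 4 and 9 exon blocks. BMP7 had the fewest counts, 4063 in total and 6 to 300 per dog, and CHRDL1 had the most, 259022.

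BMPER was lower in dogs with CHF. In the 10y-MMVD-CHF group its level ran from 1.43 CPM in CAV614 through a median of 4.29 to 6.46 in CAV1047 (4.22 ± 1.35, SD, n = 15). In the 10y-noCHF group it ran from 1.86 CPM in CAV1041 through a median of 10.7 to 22.5 in CAV749 (10.5 ± 5.08, SD, n = 19). The groups overlapped at the low end, where CAV1041 was a 10y-noCHF dog with one of the lowest values of the series. All 15 dogs with CHF were below the 10y-noCHF median, and 14 of the 19 dogs without CHF were above the highest dog with CHF. The log2 fold change, adjusted for sex, was -1.31 (SE 0.229), a level in CHF that was 40.2% of that without. Of all 19568 features tested, 0.118% had an FDR under 0.1 in this comparison, 0.092% were called lower in CHF and 0.0256% were called higher. The fold change lay between -1.39 and -1.23 when any single dog was left out and was -1.32 without both CAV614 and CAV1047.

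**Figure D1:**
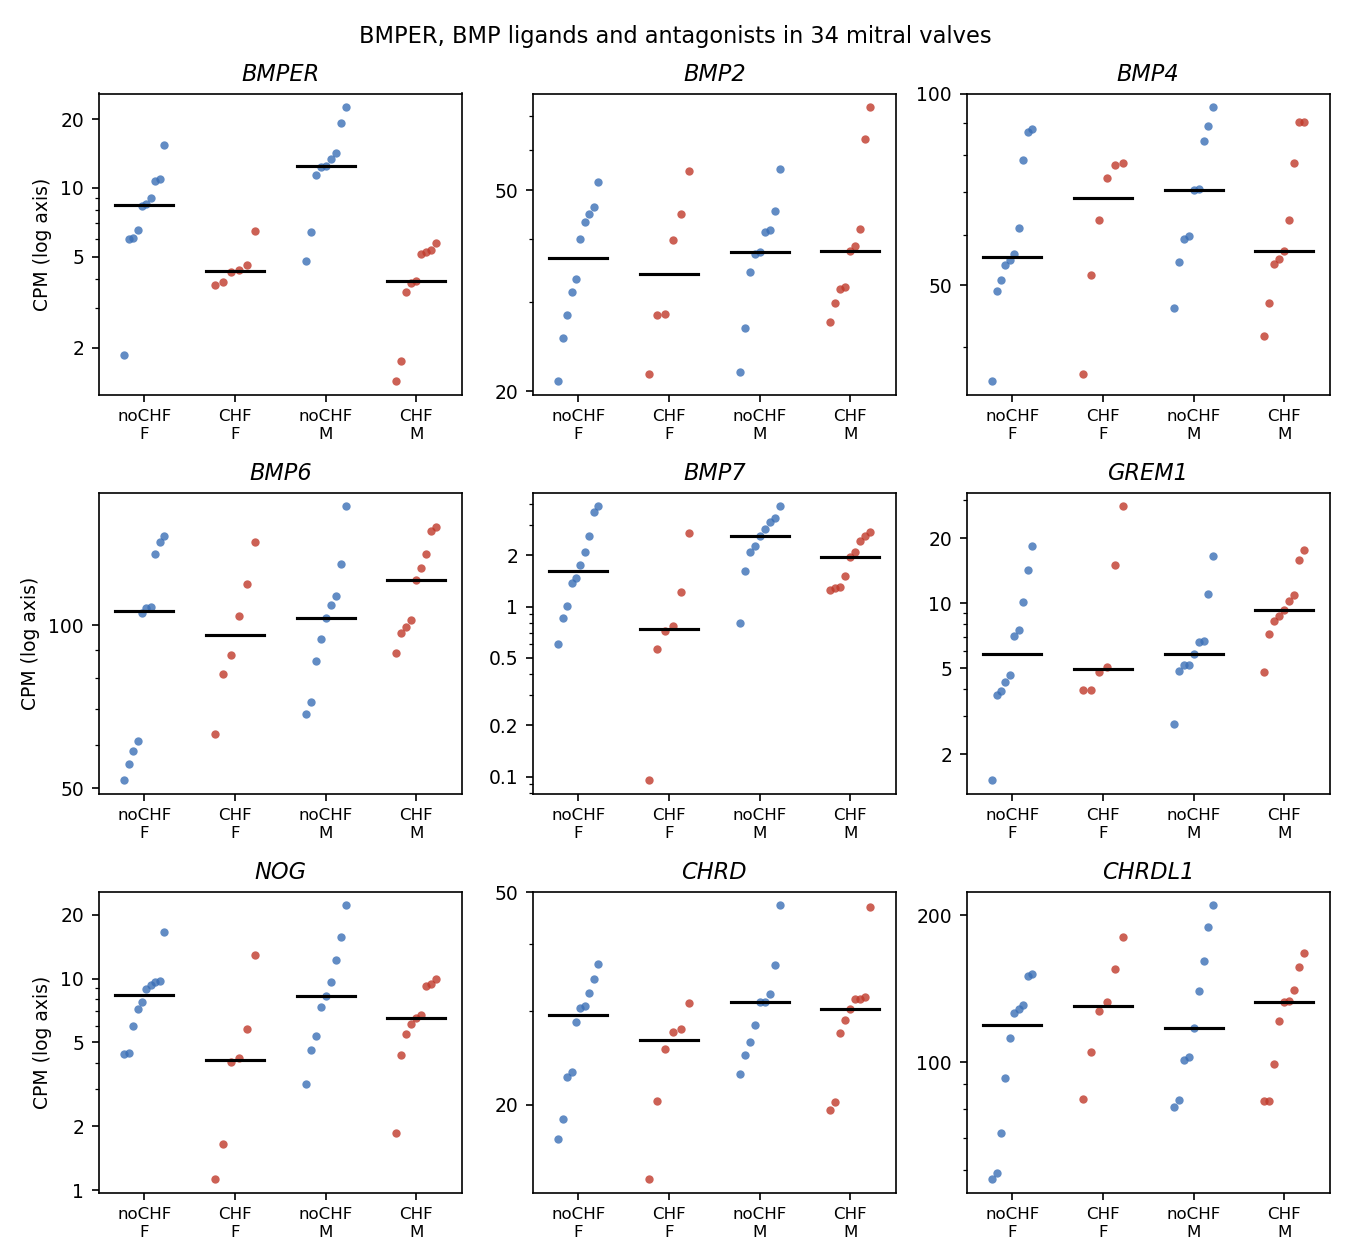
Level of each of the 9 genes in CPM (log axis) in 34 mitral valves, by CHF status and sex; each point is 1 dog, blue 10y-noCHF and red 10y-MMVD-CHF, and the black line is the group median. For BMPER the red points lie between 1.43 and 6.46 CPM, whereas the blue points reach 22.5; the other 8 genes overlap widely between the groups.

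The difference in BMPER was seen in both sexes. Among females, the dogs with CHF ran from 3.77 to 6.46 CPM with a median of 4.33, and those without from 1.86 to 15.4 with a median of 8.43. Among males, the dogs with CHF ran from 1.43 to 5.74 CPM with a median of 3.94, and those without from 4.78 to 22.5 with a median of 12.4. The female groups overlapped through CAV1041 and, because of CAV1047, 2 further 10y-noCHF dogs, and the male groups overlapped through CAV865. The log2 fold change was -0.87 (SE 0.329) in females and -1.70 (SE 0.299) in males. The difference between these was 0.82 (SE 0.43), given without a test like the other values of BMPER in this comparison. It ranged from 0.68 without CAV749 to 0.97 without CAV748 when single dogs were left out, and was 0.59 without both CAV614 and CAV1047. BMPER also varied more between dogs without CHF, where the coefficient of variation was 48.3%, than between dogs with CHF, where it was 32%, a difference that was not tested.

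Of the 4 ligands, none passed the threshold in the comparison of dogs with and without CHF, and of the 8 genes other than BMPER none was called by edgeR, DESeq2 or limma voom (0 of 8, against 0.118% of all features with edgeR). At an unadjusted p under 0.05 there were 2 of 8, NOG and BMP7, where 6.31% of all features had such a p. BMP7, a ligand known from kidney and bone, ran from 0.095 CPM in CAV1876 through a median of 1.31 to 2.73 in dogs with CHF, and from 0.606 through 2.11 to 3.89 in dogs without. Both groups spanned most of the same range, and 2 females with CHF lay below the lowest dog without. Its log2 fold change was -0.63 (SE 0.288, p = 0.0361, FDR 0.768 by edgeR). It was -0.84 without CAV1872, the female with the highest BMP7 among those with CHF.

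BMP2, a ligand long studied for its induction of bone and cartilage, had nearly equal medians of 37.8 CPM with CHF and 37.7 without. Single dogs with CHF ranged from 21.6 to 72.9 CPM and single dogs without from 20.9 to 55.1. Its log2 fold change of 0.07 (SE 0.149, 95% interval -0.22 to 0.36, FDR 0.971 by edgeR) turned to -0.01 without CAV2156, the dog with the highest value. BMP4, the ligand closest to BMP2 in sequence, had medians of 63.3 CPM with CHF and 59.7 without, and its log2 fold change was -0.05 (SE 0.13, 95% interval -0.30 to 0.21, FDR 0.975). BMP6, known for its part in the control of iron metabolism, had medians of 104.1 and 105.4 CPM and a log2 fold change of 0.12 (SE 0.148, 95% interval -0.17 to 0.41, FDR 0.948). The last 433 bases of the BMP6 feature (chr35:9131285-9131717) also belong to the feature BLOC1S5-TXNDC5 on the other strand, and 180 of them to TXNDC5. Counting used no strand, so reads there were counted for both genes and their part in the BMP6 values was not tested.

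Levels were compared only for BMP4 and BMP7, whose features are made of exon blocks. The human features run over whole genes, with introns where the gene has them. NOG, with a short human feature of 1976 bases, was not compared. Per kilobase of exon, BMP4 had a median of 33.4 CPM and BMP7 a median of 1.42 CPM. BMP4 was higher in 34 of 34 dogs, by 4.84 ± 1.05 (SD over dogs) on the log2 scale within a dog. For both, the table also held a human feature over the whole gene. The exon feature of BMP4 carried 93.1% as many counts as its human feature, and that of BMP7 carried 49.8%.

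Among the antagonists, NOG (noggin) was the one with the smallest p in the comparison by CHF. It ran from 1.13 CPM in CAV1047 through a median of 5.75 to 12.96 in CAV1872 with CHF, and from 3.16 in CAV285 through 8.29 to 22.2 in CAV901 without. Only 3 of the 15 dogs with CHF were below the lowest dog without, and 3 of the 19 dogs without were above the highest dog with CHF. The log2 fold change was -0.66 (SE 0.276, 95% interval -1.20 to -0.12, p = 0.023), with an FDR of 0.702 by edgeR over all features. It moved between -0.88 without CAV1872 and -0.53 without CAV901, and was -0.56 without CAV614 and CAV1047.

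GREM1 (gremlin), which binds chiefly BMP2, BMP4 and BMP7, had the highest log2 fold change of the 9 genes, but its groups overlapped throughout. It ran from 3.95 CPM through a median of 8.68 to 28.1 in CAV1872 with CHF, and from 1.52 through 5.84 to 18.3 without. The log2 fold change was 0.48 (SE 0.296, 95% interval -0.10 to 1.06, p = 0.113, FDR 0.848 by edgeR), and without CAV1872 it was 0.23. CAV1872 was the highest dog of the CHF group for both GREM1 and NOG. CHRD (chordin), the antagonist whose cleavage releases BMPs again, had medians of 27.7 and 30.3 CPM and a log2 fold change of -0.11 (SE 0.121, 95% interval -0.35 to 0.12, FDR 0.937). CHRDL1, a chordin-like antagonist on the X chromosome, had medians of 132.8 and 117.3 CPM and a log2 fold change of 0.08 (SE 0.153, 95% interval -0.22 to 0.38, FDR 0.966). The canine RefSeq gene LOC119868498 overlaps CHRDL1, and its part in the CHRDL1 counts was not tested. CAV1047 was the lowest female with CHF for BMP4, BMP6, GREM1, NOG, CHRD and CHRDL1, but the highest for BMPER.

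**Figure D2:**
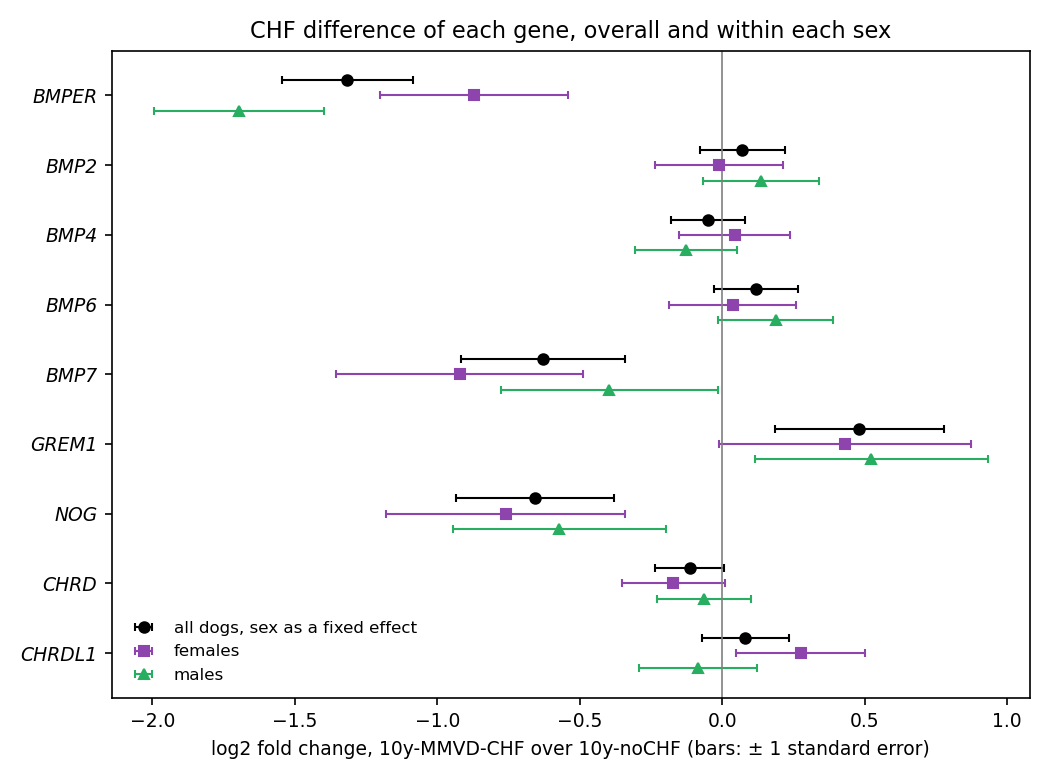
Log2 fold change of 10y-MMVD-CHF over 10y-noCHF for each gene (x axis) in all dogs with sex as a fixed effect (black circles), in females (purple squares) and in males (green triangles), from edgeR; bars are 1 standard error. BMPER lies at -1.31 in all dogs, -0.87 in females and -1.70 in males, while BMP2, BMP4, BMP6, CHRD and CHRDL1 lie within 0.12 of 0 in all dogs.

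A comparison of females with males, which played no part in the choice of the genes, called none of the 9 by edgeR, DESeq2 or limma voom, where edgeR called 0.143% of all features. At an unadjusted p under 0.05 there was 1 of 9, BMP7, with a log2 fold change of -0.60 for females over males (SE 0.286, p = 0.042 by edgeR), against 2.98% of all features. CHRDL1, the only one of the 9 on the X chromosome, differed by -0.13 (SE 0.152, p = 0.402), and BMPER differed by -0.28 (SE 0.221, p = 0.217). For the interaction of CHF and sex none of the 8 genes other than BMPER was called and none had an unadjusted p under 0.05 by edgeR, which called 0% of all features (6.02% had an unadjusted p under 0.05). DESeq2 called 3 features and limma voom 0, none of them among these genes. For the 8 genes the interaction ranged from -0.53 in BMP7 to 0.36 in CHRDL1.

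Next, the 9 genes were compared across dogs after the means of the 4 groups of CHF status and sex had been taken from the log2 CPM values, so that only variation within groups was left. BMPER was tested against each of the other 8 genes by permutation within the groups, and none of the 8 relations passed 0.05 after adjustment over them. The strongest was with BMP6 (r = -0.43, permutation p = 0.0135, adjusted 0.108; rho = -0.38, permutation p = 0.0387, adjusted 0.155). It was negative in dogs with CHF (r = -0.53, n = 15) and in those without (r = -0.40, n = 19), and was -0.43 without the dogs with the lowest and highest BMPER, CAV614 and CAV749. GREM1 followed (r = -0.34, permutation p = 0.0485, adjusted 0.194; rho = -0.36, permutation p = 0.0381, adjusted 0.155), with r of -0.25 with CHF, -0.40 without CHF and -0.31 without CAV614 and CAV749. For the other 6 genes r lay between -0.16 and 0.03. GREM1 passed (adjusted permutation p = 0.0109) when CAV1041 was left out, and BMP6 passed (adjusted permutation p = 0.0381) when CAV1790 was left out. Without both CAV614 and CAV1047, neither passed. There r was -0.38 with BMP6 (adjusted permutation p = 0.493) and -0.29 with GREM1 (adjusted permutation p = 0.494). With NOG the sign differed between groups, with r of -0.28 in dogs with CHF and 0.26 in dogs without, and with CHRDL1 it was 0.42 and -0.37. These differences were not tested. The part of the reads that BMP6 shares with BLOC1S5-TXNDC5 and TXNDC5 in its relation to BMPER was not tested either.

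Among themselves, the ligands and antagonists were positively correlated in several pairs. Of the 28 pairs that leave out BMPER, 7 passed 0.05 after adjustment by both Pearson and Spearman permutation tests, and all 7 were positive. The highest was BMP4 with CHRD (r = 0.72, rho = 0.66, adjusted permutation p = 0.00042 and 0.0014), with r of 0.64 in dogs with CHF, 0.78 in those without and 0.64 once the pair of dogs at the far ends was dropped. CHRD with CHRDL1 followed (r = 0.68, rho = 0.65, same adjusted permutation p values), with r of 0.65 with CHF, 0.73 without CHF and 0.61 without the 2 farthest dogs. BMP6 with CHRD (r = 0.59, rho = 0.58), BMP4 with CHRDL1 (r = 0.56, rho = 0.54), BMP4 with BMP6 (r = 0.55, rho = 0.55), BMP2 with NOG (r = 0.51, rho = 0.52) and BMP6 with NOG (r = 0.50, rho = 0.52) completed the 7. For these 5 the adjusted permutation p lay between 0.00616 and 0.0156 by Pearson and between 0.00905 and 0.0107 by Spearman, and r without the 2 farthest dogs lay between 0.43 and 0.55. BMP4 with CHRDL1 was 0.77 in dogs without CHF and 0.23 in dogs with CHF, a difference that was not tested. Once the cardiomyocyte markers were also taken out, r was 0.39 for BMP4 with CHRD and 0.55 for CHRD with CHRDL1. BMP4 with CHRDL1 then had r = 0.33 and rho = 0.23, and BMP4 with BMP6 had r = 0.41 and rho = 0.31. The remaining 3 pairs, BMP6 with CHRD, BMP2 with NOG and BMP6 with NOG, had r between 0.40 and 0.47. BMP7 and GREM1 were in none of the 7 pairs. The BMP6 feature shares bases with BLOC1S5-TXNDC5 and TXNDC5, and the part of those reads in its pairs was not tested.

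**Figure D3:**
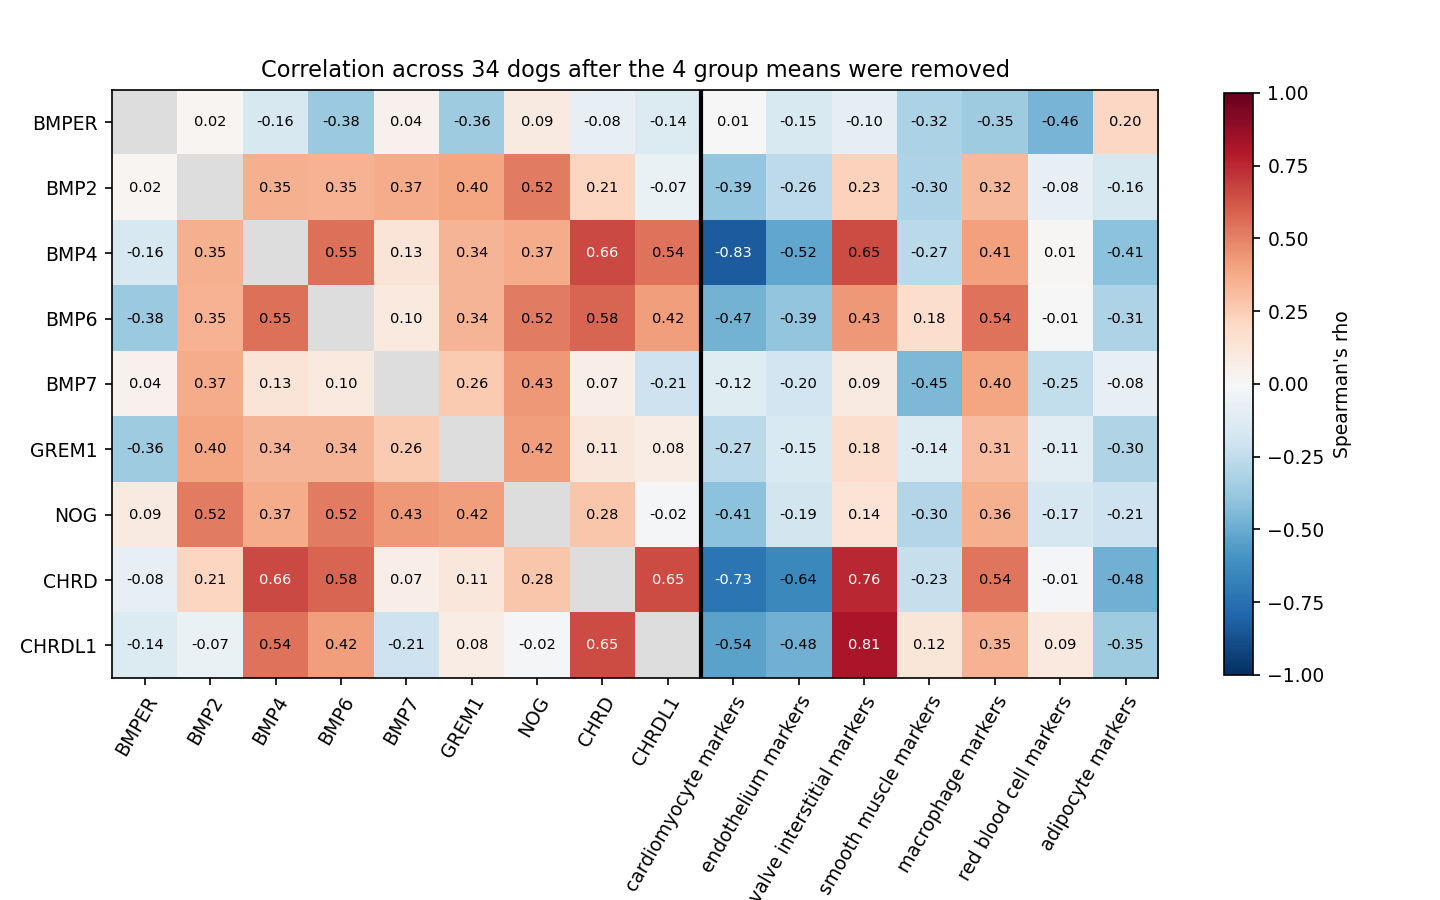
Spearman's rho (colour and printed value) between the 9 genes, left of the black line, and between each gene and the mean log2 CPM of 7 marker lists, right of it, over 34 dogs after the means of the 4 groups were removed. The highest value of BMPER is 0.20, while BMP4, CHRD and CHRDL1 form a positive block and follow the valve interstitial markers at 0.65, 0.76 and 0.81.

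The valve samples differed in how much tissue of other kinds they held, and this was set beside the 9 genes with 7 marker lists and the total count, 72 relations in all, with p adjusted over them. The summed cardiomyocyte markers ranged from 82.8 to 58340 CPM with CHF (median 5207) and from 58.6 to 27890 without (median 3763). Of the 19 markers 17 had a log2 fold change above 0 in CHF, with a median of 0.20, but 0 were called. BMP4 fell as the cardiomyocyte markers rose within groups (r = -0.81, rho = -0.83, adjusted permutation p = 0.00024 and 0.00018), and so did CHRD (r = -0.68, rho = -0.73, adjusted permutation p = 0.00036 and 0.00018). For BMPER the value was near 0 (r = -0.02, rho = 0.01, adjusted permutation p = 0.949 and 0.971), and its fold change with these markers as a covariate was -1.30. CHRDL1 followed the valve interstitial markers (r = 0.81, rho = 0.81), as did CHRD (r = 0.82, rho = 0.76), each with adjusted permutation p of 0.00024 and 0.00018. With the 2 most extreme dogs for the gene dropped, r was -0.82 for BMP4 and -0.64 for CHRD against cardiomyocyte markers, and 0.78 for CHRDL1 and 0.76 for CHRD against valve interstitial markers. With the same list BMPER gave r of -0.19 in all dogs, 0.29 in dogs with CHF and -0.47 in those without (adjusted permutation p = 0.463 for all dogs). Of the 11 valve interstitial markers 0 were called in the comparison by CHF, and their summed level ranged from 22160 to 60270 CPM with CHF and from 17410 to 51080 without.

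Within groups, BMPER was lower in dogs with more red blood cell RNA. Against the mean of the red blood cell markers it gave r = -0.50 and rho = -0.46 (adjusted permutation p = 0.024 and 0.0438), and r = -0.40 without CAV614 and CAV749. The relation was r = -0.81 in the 15 dogs with CHF and -0.28 in the 19 dogs without, and CAV614 had both the lowest BMPER and the highest red blood cell level. All 6 red blood cell markers tested had a log2 fold change above 0 in CHF, with a median of 0.90, but 0 were called. Their summed level ranged from 4.32 to 4269 CPM with CHF (median 59.0) and from 6.62 to 1026 without (median 47.3). With their mean as a covariate the BMPER fold change was -1.32. BMPER also gave r = 0.33 with the total count (adjusted permutation p = 0.122), which was 0.61 in dogs without CHF and -0.10 in dogs with CHF. NOG gave r = 0.50 with the total count (rho = 0.37, adjusted permutation p = 0.0304 and 0.134). For NOG r was 0.42 in dogs without CHF and 0.58 in dogs with CHF.

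The other marker lists were set beside the BMPER difference in the same way. All 5 adipocyte markers had a log2 fold change below 0 in CHF, with a median of -0.88, but 0 were called. Their summed level ranged from 3.12 to 84.0 CPM with CHF (median 6.78) and from 2.01 to 91.5 without (median 15.6). Within groups BMPER gave r = 0.18 with them (rho = 0.20, adjusted permutation p = 0.463 and 0.432). Of the 10 endothelial markers 1 was called, VWF, which was higher in CHF, where 0.0256% of all features were called higher. The summed level of the endothelial markers ranged from 710.2 to 1812 CPM with CHF and from 514.7 to 1079 without. With that list BMPER gave r = -0.06 (rho = -0.15, adjusted permutation p = 0.859 and 0.563). In dogs with CHF rho was -0.59 (r = -0.22) and in those without it was 0.06 (r = 0.02), a difference that was not tested. None of the 7 smooth muscle or 9 macrophage markers was called, and 3 and 8 of them had a log2 fold change above 0 in CHF. With the smooth muscle list BMPER gave r = -0.38 (rho = -0.32, adjusted permutation p = 0.0971 and 0.188). That r was 0.04 in dogs with CHF and -0.57 in those without. With the macrophage list BMPER gave r = -0.32 (rho = -0.35, adjusted permutation p = 0.149 and 0.146). The part of the adipocyte, endothelial, smooth muscle and macrophage RNA in the BMPER difference was not tested.

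**Figure D4:**
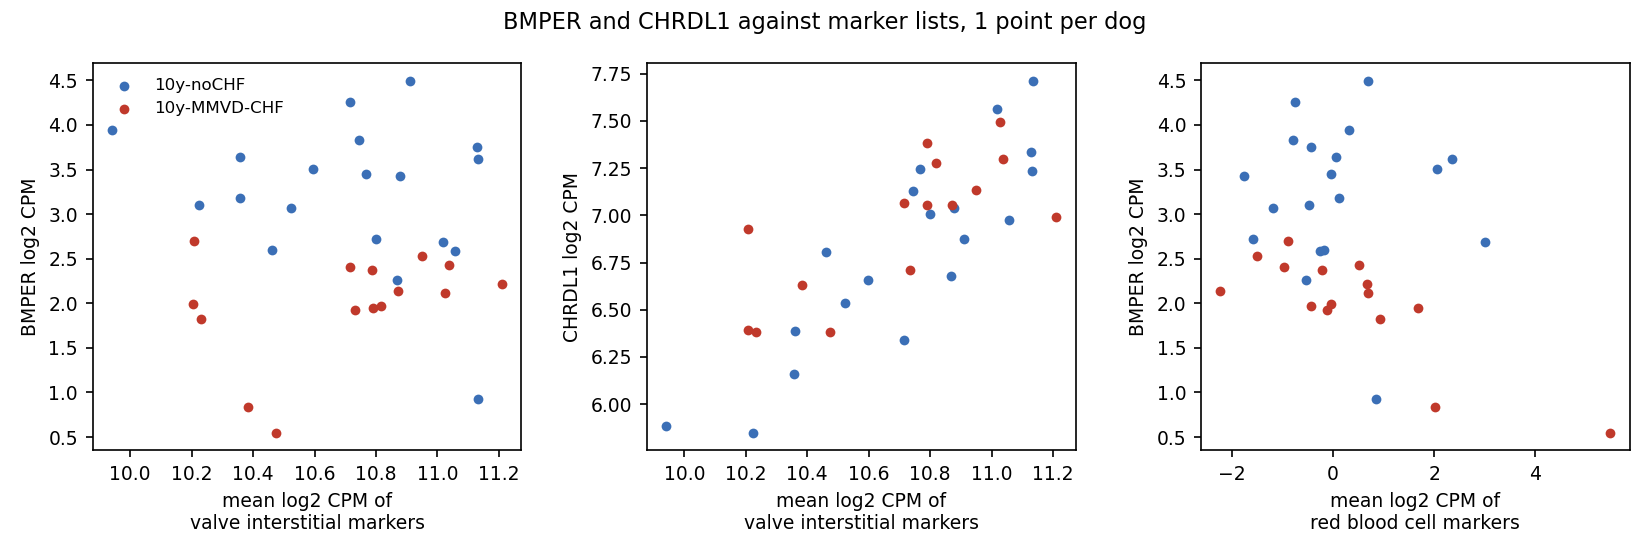
Log2 CPM of BMPER (left) and CHRDL1 (middle) against the mean log2 CPM of the valve interstitial markers, and of BMPER against that of the red blood cell markers (right); each point is 1 of 34 dogs, blue 10y-noCHF and red 10y-MMVD-CHF. CHRDL1 rises with the valve interstitial markers in both groups (r = 0.81 within groups), BMPER does not, and the lowest BMPER value, at the far right of the last panel, is CAV614.

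The rest of the BMP pathway was read from 59 further symbols listed by role, of which HJV and HFE2 name the same gene, and 53 were tested. None of the 53 was called in either direction by edgeR, DESeq2 or limma voom, where edgeR called 0.118% of all features. At an unadjusted p under 0.05 there were 2, or 3.77%, against 6.31% of all features. The log2 fold changes were above 0 for 33 and below 0 for 20, while over all features the median was 0.01 and 47.4% were below 0. The genes BMP10, BMP15, GDF2 and CER1 had under 100 counts over all dogs, and the symbols BMP8A and HFE2 matched no feature.

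Of the 8 other ligands, 6 had a value below 0 and 2 above, with a median log2 fold change of -0.16. BMP5 had -0.39 (SE 0.226, p = 0.0911) and GDF7 had -0.58 (SE 0.34, p = 0.0957). Of the 11 receptors and co-receptors, 9 had a value above 0, with a median of 0.12. BMPR2, the type II receptor of BMPs, went from 163.2 ± 18.6 CPM without CHF to 177.7 ± 19.2 with CHF (SD over dogs), a log2 fold change of 0.12 (SE 0.0588, p = 0.0448, FDR 0.778 by edgeR). BMPR1A, a type I receptor, had 0.20 (SE 0.103, p = 0.0572). Of the 18 other antagonists and modulators, 10 were above 0 and 8 below, with a median of 0.02. FST (follistatin), which binds activins and some BMPs, had the smallest p of all 53 genes, with 12.99 ± 4.82 CPM without CHF and 9.88 ± 2.96 with CHF. Its log2 fold change was -0.42 (SE 0.171, p = 0.0195, FDR 0.676 by edgeR). KCP, a chordin-like protein as BMPER is, had -0.28 (SE 0.155, p = 0.0769).

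The 8 SMADs and SMURFs, which carry the signal in the cell, restrain it or mark its parts for degradation, lay close to 0, between -0.01 and 0.14. SMURF2 had 0.10 (SE 0.0539, p = 0.0678) and SMAD5 had 0.07 (SE 0.0594, p = 0.217). Of the 8 target genes, whose transcription is known to respond to BMPs, 5 were above 0 and 3 below, with a median of 0.13. ATOH8 had 0.24 (SE 0.117, p = 0.0513), and ID3, an inhibitor of basic helix-loop-helix factors, had 0.22 (SE 0.119, p = 0.0705). Their FDRs were 0.786 and 0.812 by edgeR. None of the 53 genes was called for sex or for the interaction of CHF and sex, with 2 and 4 at an unadjusted p under 0.05, where 2.98% and 6.02% of all features had such a p.

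**Figure D5:**
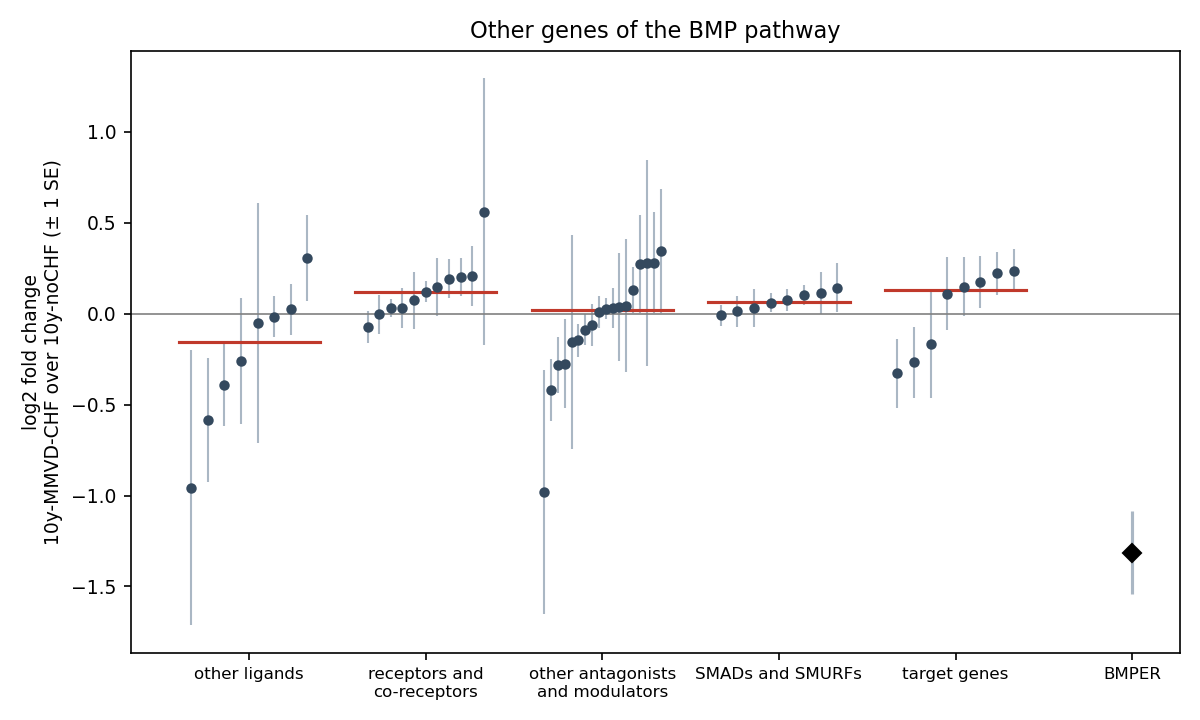
Log2 fold change of 10y-MMVD-CHF over 10y-noCHF (y axis, bars 1 standard error) for 53 genes of the BMP pathway by role, with the median of each list in red, and for BMPER (diamond). The list medians lie between -0.16 and 0.13, and BMPER lies at -1.31.

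The genes whose variation within groups was most like that of BMPER were sought over 15106 features by Spearman's rho, as a description. The 10 highest were METTL21EP (0.63), KLF11 (0.63), SLC2A11 (0.62), FAN1 (0.59), ANXA3 (0.59), STARD4 (0.59), IST1 (0.58), RNF149 (0.58), TTLL8 (0.58) and CA3-AS1 (0.57). The 5 most negative were NECAB2 (-0.58), CD6 (-0.58), CDCA4 (-0.57), EEF1AKMT4 (-0.57) and SELENOS (-0.57). No member of the BMP pathway lists was among them. Lists this short out of 15106 features would seldom hold a pathway gene by chance, so nothing follows from this. Without CAV614 and CAV1047 only 3 of the 10 highest were again among the 10 highest, and with the cardiomyocyte markers taken out 6 were.

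For the other genes the same search gave higher values. BMP4 was most like BRF2 (0.89), CLIP3 (0.85) and TWIST1 (0.85), the last a transcription factor of mesenchymal cells. CHRD was most like COPZ2 (0.88), CORO7 (0.88) and EPHB3 (0.88), and CHRDL1 was most like CPXM2 (0.88), CCDC80 (0.86) and GAS6 (0.85). NOG was most like ANO1 (0.86), HMGA2 (0.82) and RTRAF (0.81). For BMP6 the first were BLOC1S5-TXNDC5 (0.93) and TXNDC5 (0.91), the features with which it shares bases, and then INHBB (0.83), the beta-B subunit of activins and inhibins. BMP2 was most like PLEKHA7 (0.78), REXO2 (0.76) and ARAP2 (0.74), GREM1 most like FBP1 (0.78), PRKCQ (0.75) and ALOX15P1 (0.73), and BMP7 most like H2BP2 (0.66), SLC5A6 (0.63) and KCNA3 (0.63).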

How the data were processed

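Reads (paired-end, polyA RNA) were mapped by the authors to canFam4 with STAR and counted with featureCounts 2.0.3 on canine RefSeq and human XenoRefSeq features, and the authors deposited the raw counts. A read was assigned to every feature it overlapped, strand was not used and both reads of a pair were counted. Of the counts above 0, 71% were even. Groups and sexes follow the labels, and 1 column of counts that matches no sample was not used. Features whose counts added up to at least 100 over the dogs (19568 of 23768) entered edgeR's quasi-likelihood test (edgeR 4.0.16, R 4.3.3), with TMM scaling, CHF status and sex in the model, a Benjamini-Hochberg FDR threshold of 0.1 and approximate SEs. The study's own tool, DESeq2 1.42.0, and voom of limma 3.58.1 were run as alternatives. Log2 CPM used a prior count of 2. Permutation tests were two-sided, within the 4 groups, with 100000 resamples, and the smallest p they can give is 1e-05. Adjusted permutation p values are given for Pearson, then for Spearman. The edgeR, DESeq2, voom and correlation code was tested on simulated data.

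The 9 genes, the pathway lists and the marker lists were chosen with earlier results of these data known. The genes named are the 9, the 2 of each pathway list with the smallest p, and the features most like each of the 9 among those with a mean of at least 1 CPM (10 positive and 5 negative for BMPER, 3 positive for the others). The gene with the highest level per length of each pathway list was not named, since the human features run over whole genes, with introns where present. Each dog was 1 replicate.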

Additional observations from a re-analysis of the deposited data

Results flagged for a closer look

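In each of the 4 groups of CHF status and sex, the highest and lowest dog was compared with its neighbours for each of the 9 genes by Dixon's criterion. Of 36 such tests 3 were past the 95% critical value, where chance alone flags 5% of groups. BMPER in CAV1047 was the highest of the females with CHF at 6.46 CPM, with the next dog at 4.61. NOG in CAV447 was the highest of the females without CHF at 16.6 CPM, with the next dog at 9.79. CHRD in CAV487 was the highest of the males with CHF at 46.8 CPM, with the next dog at 31.8. CAV1047 also had the highest cardiomyocyte marker level of the series.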

How the results depend on the processing

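The BMPER fold change lay between -1.35 (limma voom) and -1.30 (cardiomyocyte covariate) under 10 alternatives and between -1.39 and -1.23 with single dogs left out, and since BMPER was chosen by it, this is no independent support. None of the other 8 genes and none of the pathway genes was called under any alternative run. The count over all features, 23, was 64 with DESeq2, 13 without a sex term, 15 with 1 feature per gene symbol, and 8 to 28 with single dogs left out (lowest without CAV1519 or CAV2102, highest without CAV743). Only BMP2 changed sign, to -0.0079 without CAV2156 (highest 0.12 without CAV1876). The number of BMPER correlations past 0.05 was 0, and 0 to 1 with single dogs left out. Members called for sex or for the interaction stayed at 0. Alternatives without CAV614 and CAV1047, with the red blood cell covariate, with the cardiomyocyte markers taken out of the search for the genes most like BMPER, and single dogs left out for sex and the interaction were chosen after seeing the data. The cause of these shifts was not tested. Depth limits BMP7, NOG and BMPER most, with as few as 6, 44 and 92 counts in a dog. No paired analysis was possible because each dog gave 1 library and nothing in the labels ties a dog of one group to a dog of another.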
